A study of Mus musculus with 10 samples.

Results

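Peaks of 4 Polycomb group (PcG) measurements were examined at 10 mouse Sox genes, out of 22351 protein-coding genes located in mm9. The genes were taken by name in 3 sets. The neural set held Sox1, Sox2, Sox14 and Sox21, the SoxE set held Sox8, Sox9 and Sox10, and the SoxF set held Sox7, Sox17 and Sox18. In every list of peaks, those overlapping the gene or the 10 kb on either side of it (the window, 21.8 to 29.6 kb long at these genes) were taken, and the start site of the gene was scored as inside or outside a peak.

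Ring1b, Cbx2, Ezh2 and H3K27me3 were profiled by ChIP-seq in J1 ESCs, a line of mouse embryonic stem cells, and Ring1b and H3K27me3 in neural stem cells (NSCs). The ESCs were grown with serum and leukemia inhibitory factor on mitomycin-C inactivated embryonic fibroblasts, which were depleted at harvest. The NSCs were made from J1 ESCs in culture and kept on gelatin with EGF and FGF, so both cell types share the J1 genotype and neither was treated further. Cells were fixed in 1% formaldehyde for 10 min and chromatin was sonicated to 250 bp on average. By the methods of the study, Ring1b chromatin was also fixed with EGS, a longer cross-linker, and Ring1b had inputs of its own, so a difference between Ring1b and another target cannot be told apart from that step. Each cell type and target has 1 library. There are therefore no replicates, no difference given here has a replicate check or a test, and the depth behind the lists is unknown.

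SOX proteins are transcription factors that bend DNA through an HMG box, and closely related members often act in the same tissues. Sox1 and Sox2 are SoxB1 factors that maintain neural progenitors, and Sox2 is also a core pluripotency factor of ESCs. Sox14 and Sox21 are SoxB2 factors, which mostly act as repressors in the developing nervous system. The SoxE factors act in neural crest, glia, cartilage and testis, and the SoxF factors in endoderm and in blood and lymph vessels. PcG proteins keep developmental genes silent. Ring1b is the E3 ligase of the PRC1 complex and Cbx2 one of its chromodomain subunits, while Ezh2 is the methyltransferase of the PRC2 complex that places H3K27me3.

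PcG complexes in mouse cells are known to occupy mainly CpG-rich DNA around start sites, so the bases just upstream of the genes are shown for 4 of the 10 members that span the range of patterns described here. Sox1 and Sox21 lay under wide Ring1b peaks in ESCs, Sox2 had no Ring1b peak, and Sox17 changed its peak width between the cell types. Each line gives the 250 bases upstream of the start site in mm9, read 5′ to 3′ on the strand of the gene, with CpG dinucleotides in capitals. Their positions are chr8:12395269-12395518 on the + strand for Sox1, chr3:34548677-34548926 on the + strand for Sox2, chr14:118636253-118636502 on the - strand for Sox21 and chr1:4486495-4486744 on the - strand for Sox17.
Sox1: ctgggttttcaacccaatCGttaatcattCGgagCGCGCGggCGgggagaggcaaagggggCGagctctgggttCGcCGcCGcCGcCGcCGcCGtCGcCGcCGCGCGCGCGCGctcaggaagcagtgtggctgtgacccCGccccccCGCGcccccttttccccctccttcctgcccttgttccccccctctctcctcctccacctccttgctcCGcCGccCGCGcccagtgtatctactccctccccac
Sox2: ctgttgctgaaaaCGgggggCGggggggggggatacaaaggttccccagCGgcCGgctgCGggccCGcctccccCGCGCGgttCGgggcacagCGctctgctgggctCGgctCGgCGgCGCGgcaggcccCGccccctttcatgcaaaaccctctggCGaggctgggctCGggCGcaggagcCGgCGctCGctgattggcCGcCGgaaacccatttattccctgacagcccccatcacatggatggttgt
Sox21: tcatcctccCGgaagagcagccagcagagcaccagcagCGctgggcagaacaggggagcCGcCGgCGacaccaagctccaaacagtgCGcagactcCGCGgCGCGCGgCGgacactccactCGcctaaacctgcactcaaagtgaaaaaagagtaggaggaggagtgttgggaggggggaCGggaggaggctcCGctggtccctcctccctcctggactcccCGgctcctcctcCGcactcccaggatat
Sox17: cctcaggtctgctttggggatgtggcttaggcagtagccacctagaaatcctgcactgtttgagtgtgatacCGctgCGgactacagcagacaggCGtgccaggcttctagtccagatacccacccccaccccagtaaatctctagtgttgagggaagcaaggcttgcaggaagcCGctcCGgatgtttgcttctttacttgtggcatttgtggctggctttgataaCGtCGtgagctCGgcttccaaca

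By the median, the neural set had the most CpG dinucleotides upstream of its start sites. Sox1 had 29 and Sox2 had 25, more than at 92.6% and 88.0% of all protein-coding genes, and Sox21 and Sox14 had 17 and 16. Of the SoxE genes, Sox8 had 18 and Sox9 had 11. The SoxF genes were split between Sox7, with 28, and Sox18 and Sox17, with 11 and 8. The median was 21 over the 4 neural genes, 14.5 over these 2 SoxE genes, 11 over the 3 SoxF genes, 8 over all protein-coding genes and 18 over the 1572 genes whose start site lay in an ESC Ring1b peak. The start site of Sox2, with 25, lay in no Ring1b peak, whereas that of Sox17, with 8, lay in an ESC Ring1b peak. The ESC Ring1b peak nearest to Sox2 lay 17 bp past its window. Whether CpG number goes with PcG peaks was not tested. The motif GGGCGG, a GC box, was found on either strand in the upstream bases of 6 of the 9 members examined for it (Sox1, Sox2, Sox14, Sox8, Sox7 and Sox18), a share of 66.7%, against 39.6% of all protein-coding genes.

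**Figure D1:**
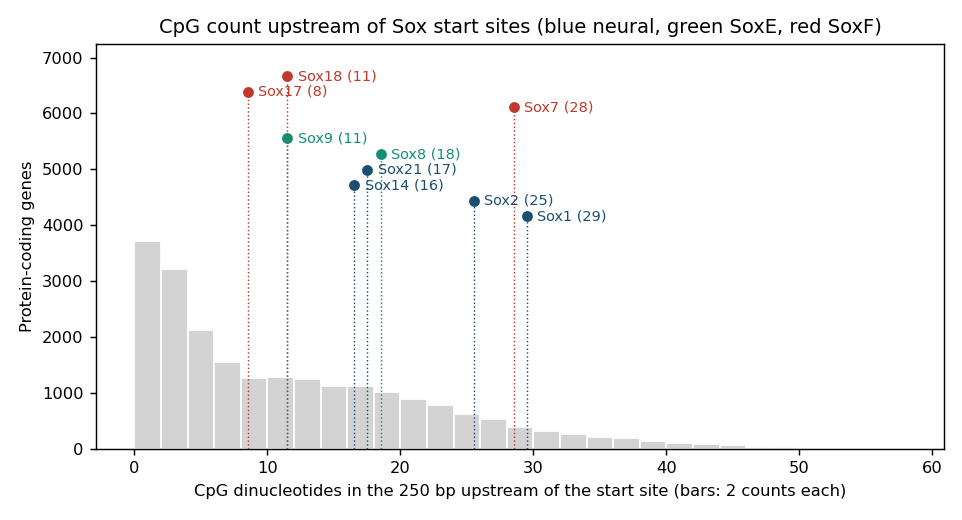
Number of CpG dinucleotides in the 250 bp upstream of the start site (x axis) against the number of protein-coding genes (y axis, grey bars of 2 counts each), with 9 Sox genes each marked by a dotted line and its count in parentheses. The height of a marker carries no value. Sox1, Sox7 and Sox2 lie in the right tail of the distribution, with 29, 28 and 25, and Sox17 near its centre, with 8.

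The lists differed in size, which sets how often any gene is met. The ESC lists held 2335 Ring1b, 1033 Cbx2, 1173 Ezh2 and 2192 H3K27me3 peaks, and the NSC lists 1389 Ring1b and 1647 H3K27me3 peaks. No peak was narrower than 1000 bp, and every edge fell on a multiple of 200 bp. The start sites of 5 ESC marker genes (Pou5f1, Nanog, Zfp42, Klf4 and Tdgf1) lay in no peak of any list, and neither did those of 3 fibroblast genes (Col1a1, Col1a2 and Thy1). The start sites of Nes, Pax6 and Olig2, which mark NSCs, lay in ESC Ring1b peaks and in no NSC peak, and those of the NSC markers Fabp7 and Slc1a3 in no peak of any list. In each list, 1.15 to 7.03% of all start sites lay in a peak. Of those in ESC Ring1b peaks, 83.3% lay in no NSC Ring1b peak. Such absences therefore say little about cell type. The lists hold no expression values, so the labelled cell types could not be checked. A peak present in some of the cells and a weaker signal in all of them cannot be told apart in such bulk libraries.

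In ESCs, the start sites of 8 of the 10 Sox genes lay in Ring1b peaks, against 7.03% of all protein-coding genes. Sox2 and Sox8 were the exceptions. Ezh2 peaks held 7 start sites, those of Sox14, Sox21, Sox9, Sox10, Sox7, Sox17 and Sox18, against 2.56% of genes. ESC H3K27me3 peaks also held 7, those of Sox14 and of all SoxE and SoxF genes, against 4.31%. Cbx2 peaks held only 2, Sox9 and Sox17, against 1.15%. These 2 genes were the only members with their start site in all 4 ESC lists, as were 0.752% of all genes.

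Counts over the whole window, peaks on the start site included, were as high or higher in every list. The H3K27me3 list of ESCs had a peak in the window of all 10 members, against 9.98% of genes. Ring1b had one at 9 members, Sox2 being the exception, against 11.5%. Ezh2 had one at 8, against 5.29%, and Cbx2 at 5 (Sox1, Sox14, Sox21, Sox9 and Sox17), against 3.1%. In NSCs, the windows of Sox1, Sox14 and Sox17 held Ring1b peaks, against 4.65% of genes, and those of Sox1, Sox2, Sox14, Sox17 and Sox18 held H3K27me3 peaks, against 4.7%. No SoxE gene had a peak of either kind in NSCs. At shares this low, that absence says little about so small a set.

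**Figure D2:**
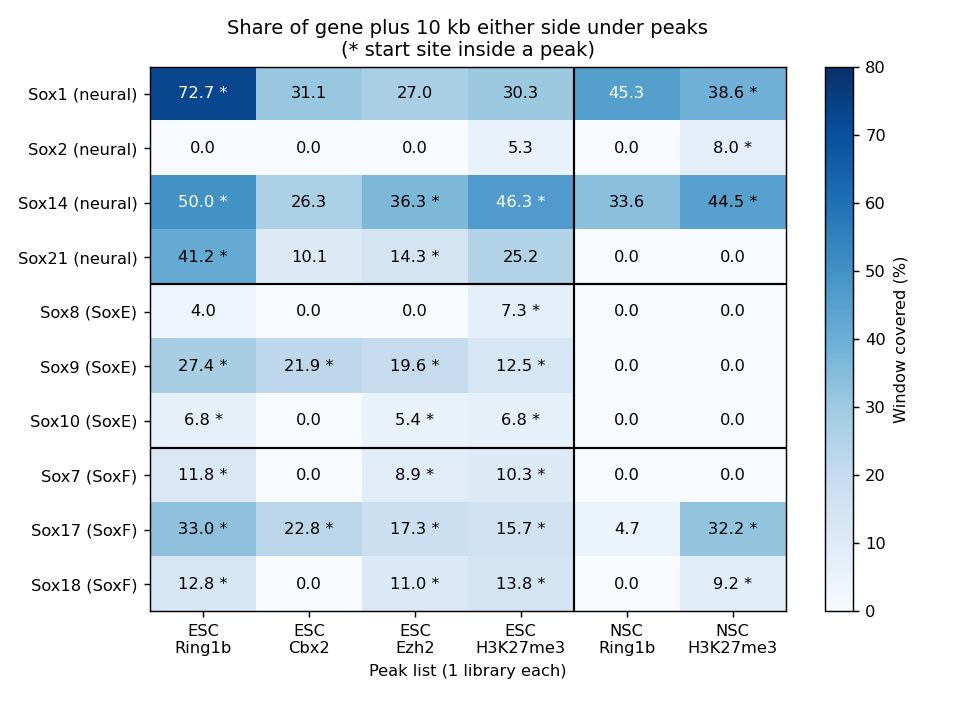
Share of the window of each Sox gene under peaks (percent, colour and printed value) in the 6 lists, with an asterisk where the start site lies inside a peak. Rows are genes grouped by set and columns are lists, with ESC lists left of the vertical line and NSC lists right of it. Sox1, Sox14 and Sox21 have the highest ESC Ring1b shares and the SoxE rows are at 0 in both NSC columns.

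The neural set was covered most widely and most unevenly. Sox1, a single-exon gene on the + strand at chr8:12395519-12399555, had 72.7% of its window under ESC Ring1b, the highest share of any member in any list. The peak ran from 12383001 to 12403000, was 20000 bp wide and ranked 21 in its list, with 0.899% of ESC Ring1b peaks at least as wide. It held the whole gene. The other ESC lists broke this domain into pieces, with 3 Cbx2 peaks over 31.1% of the window, 3 Ezh2 peaks over 27% and 2 H3K27me3 peaks over 30.3%, and in none of them was the start site inside a peak. The nearest Ezh2 edge lay 82 bp into the gene and the nearest H3K27me3 edge 1482 bp into it. The largest ESC H3K27me3 peak here, 9000 bp wide, lay entirely upstream, from 13118 to 4119 bp before the start site.

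In NSCs the Sox1 start site lay in an H3K27me3 peak and in no Ring1b peak, the reverse of ESCs. With peaks within 3 kb merged, it lay in an NSC Ring1b peak too. Without merging, the NSC peaks were as follows. Ring1b was split into 3 peaks of 3600, 3400 and 6000 bp over 45.3% of the window, none of them over the start site, which lay 1319 bp from the nearest edge. H3K27me3 covered 38.6% of the window in 3 peaks, of which one of 6000 bp, from 12394201 to 12400200, held the entire gene. All of the NSC Ring1b bases, 10.9 kb, in the window lay inside the ESC Ring1b domain and made up 62.2% of its 17.5 kb there. The H3K27me3 bases of the 2 cell types shared 3.28 kb, which was 45.1% of the ESC cover and 35.4% of the NSC cover. A second gene record on the same strand, Gm5607, starts 9748 bp upstream of Sox1, and its start site lay in peaks of all 6 lists. Upstream peaks in this window can therefore not be assigned to Sox1 alone.

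Sox14, a 2-exon gene on the - strand at chr9:99774644-99776663, kept a broad domain in both cell types. Its ESC Ring1b peak was 11000 bp wide, from 99767601 to 99778600, and covered 50% of the window and the whole gene. ESC H3K27me3 covered 46.3%, mostly in an 8800 bp peak over the start site, and Ezh2 covered 36.3% and Cbx2 26.3%. The Cbx2 peak nearest the start site began 263 bp into the gene. In NSCs, 1 H3K27me3 peak of 9800 bp covered 44.5% of the window and again held the start site and the whole gene, and only 2.06% of the peaks in its list were at least as wide. The NSC Ring1b peak of 7400 bp covered 33.6%, but it lay downstream of the gene, 2063 to 9462 bp past the start site. The 2 cell types shared 8.6 kb of H3K27me3, which was 84.3% of the ESC cover and 87.8% of the NSC cover.

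Sox21, a single-exon gene on the - strand at chr14:118632454-118636252, was covered in every ESC list and in no NSC list. Ring1b covered 41.2% of the window, mainly through a peak of 8400 bp from 118629001 to 118637400 that held the whole gene. H3K27me3 covered 25.2%, Ezh2 14.3% and Cbx2 10.1%. The 5000 bp H3K27me3 peak covered 93.4% of the gene but began 252 bp past the start site. In NSCs the nearest Ring1b peak was 1271149 bp away and the nearest H3K27me3 peak 899949 bp away.

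Sox2, a single-exon gene on the + strand at chr3:34548927-34551383, stood apart from the other neural genes. Its window held no Ring1b peak in either cell type and no Cbx2 or Ezh2 peak, so the only peaks were of H3K27me3. In ESCs, 1 peak of 1200 bp, from 34549201 to 34550400, covered 5.34% of the window and began 274 bp into the gene. In NSCs the peak was 1800 bp wide, from 34548801 to 34550600, covered 8.02% of the window and 68.1% of the gene, and included the start site. It reached 126 bp into the upstream bases printed for Sox2. All of the ESC bases lay inside the NSC peak. Of the H3K27me3 peaks in their lists, 83.2% in ESCs and 42.0% in NSCs were at least as wide as these. The nearest ESC Ring1b peak, 2400 bp wide from 34561401 to 34563800, lay 17 bp past the edge of the window, 12474 bp downstream of the start site. The nearest Cbx2 and Ezh2 peaks were 4133927 and 4134527 bp away, and the nearest NSC Ring1b peak 1103674 bp away.

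**Figure D3:**
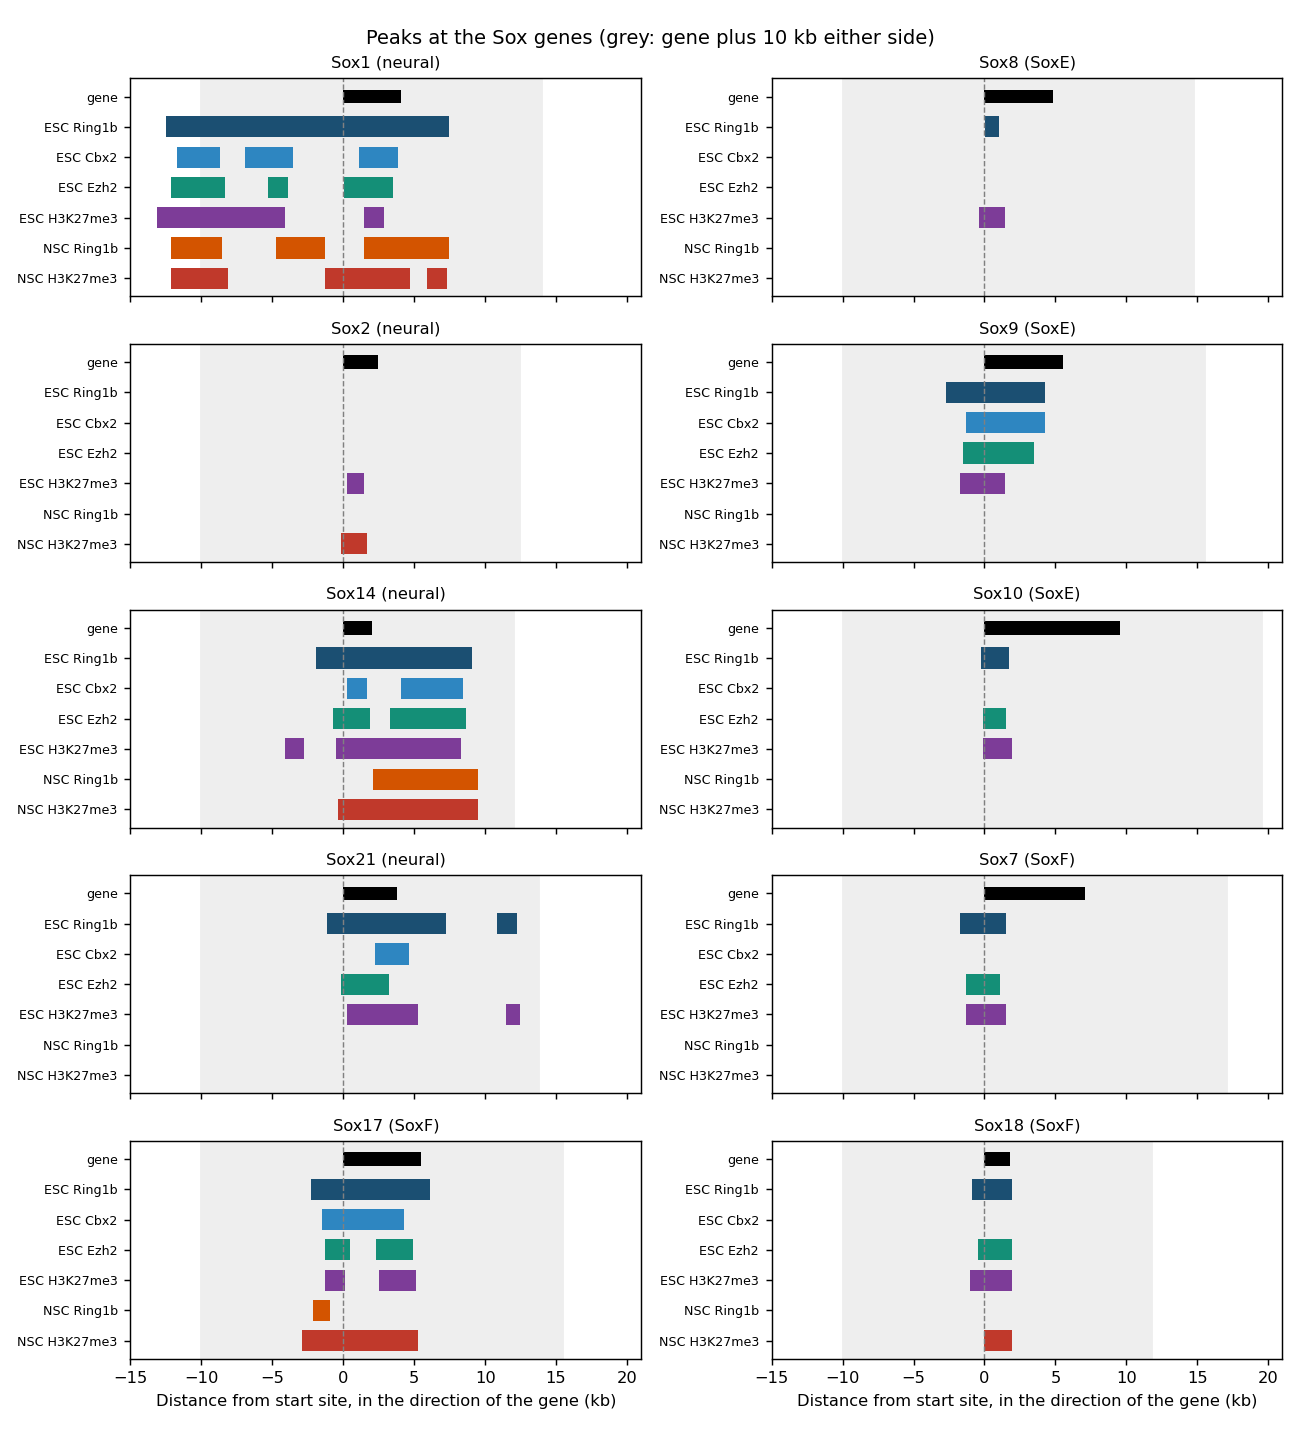
Peaks at each Sox gene, drawn to scale against distance from the start site in kb (x axis, positive in the direction of the gene), with 1 row per list and the gene as a black bar. The grey area is the gene plus 10 kb on either side, and the dashed line is the start site. Peaks at Sox10, Sox7, Sox18 and Sox8 stay close to the start site, whereas those at Sox1 and Sox14 run across much of the window.

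The SoxE genes had short peaks in ESCs, apart from Sox9, and no peak in NSCs. Sox9, which drives cartilage and testis development and acts in glia, has 3 exons on the + strand at chr11:112643538-112649074. Peaks of 7000 bp (Ring1b), 5600 bp (Cbx2), 5000 bp (Ezh2) and 3200 bp (H3K27me3) all held its start site and covered 27.4, 21.9, 19.6 and 12.5% of the window. All 4 lists overlapped over 2.8 kb. The H3K27me3 peak lay entirely within the Ring1b peak and made up 45.7% of it. In NSCs the nearest Ring1b peak was 382663 bp away and the nearest H3K27me3 peak 2069063 bp away.

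Sox10, needed for neural crest and oligodendrocyte development, has 4 exon blocks on the - strand at chr15:78985343-78994920. Its peaks of 2000 bp for Ring1b, 1600 bp for Ezh2 and 2000 bp for H3K27me3 all held the start site, yet covered only 6.76, 5.41 and 6.76% of the window. Each included the first part of the gene and 2 of its exon blocks, and the nearest Cbx2 peak was 2645720 bp away. Sox8, expressed with Sox9 and Sox10 in several of the same tissues, has 3 exon blocks on the - strand at chr17:25702837-25707631. It had the least ESC Ring1b of the 9 members with any, 1 peak of 1000 bp that covered 4.03% of the window and began 31 bp into the gene. This is the smallest width in the list. An H3K27me3 peak of 1800 bp did hold the start site and covered 7.26% of the window. Cbx2 and Ezh2 had no peak in the window, and neither list of NSCs did.

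The SoxF genes had their start sites in Ring1b, Ezh2 and H3K27me3 peaks of ESCs without exception. Sox17, a factor required for definitive endoderm, has 5 exon blocks on the - strand at chr1:4481009-4486494. Its ESC Ring1b peak of 8400 bp, from 4480401 to 4488800, covered 33.0% of the window and all 5 exon blocks. A Cbx2 peak of 5800 bp covered 22.8%. Ezh2 and H3K27me3 were each split in 2, one peak over the start site (1800 and 1400 bp) and another within the gene (2600 bp each), and covered 17.3 and 15.7% of the window.

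In NSCs the H3K27me3 cover of Sox17 was wider than in ESCs and the Ring1b cover was narrower. A single H3K27me3 peak of 8200 bp, from 4481201 to 4489400, covered 32.2% of the window and 96.5% of the gene, and 3.46% of the peaks in its list were at least as wide. It took in all of the ESC H3K27me3 bases, which made up 48.8% of it. Ring1b was reduced from 8400 bp to a 1200 bp peak lying between 2106 and 907 bp upstream of the start site, with 4.71% of the window covered. Only 14.6% of the NSC H3K27me3 bases in this window were also under Ring1b, whereas in ESCs all H3K27me3 bases were.

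Sox18, which acts in blood and lymph vessels, has 2 exon blocks on the - strand at chr2:181404541-181406345. Its ESC peaks of 2800 bp for Ring1b, 2400 bp for Ezh2 and 3000 bp for H3K27me3 each held the entire gene. They covered 12.8, 11 and 13.8% of the window. In NSCs an H3K27me3 peak of 2000 bp, from 181404401 to 181406400, still held the entire gene, while the nearest Ring1b peak was 1646945 bp away. Sox7, expressed in extraembryonic endoderm and vessels, has 2 exon blocks on the + strand at chr14:64562511-64569569. Its ESC peaks of 3200 bp (Ring1b), 2400 bp (Ezh2) and 2800 bp (H3K27me3) covered 11.8, 8.87 and 10.3% of the window and lay over the start site. Unlike Sox17 and Sox18, Sox7 had no peak in NSCs, where the nearest H3K27me3 peak was 337111 bp away and the nearest Ring1b peak 481911 bp away. Cbx2 had no peak at Sox7 or Sox18.

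For Ring1b, every one of the 8 start sites held in ESCs was outside NSC peaks. The share over all protein-coding genes was nearly as high, since 83.3% of the 1572 start sites in ESC Ring1b peaks lay in no NSC Ring1b peak. NSC Ring1b peaks held 1.74% of all start sites and 0 of the 10 members. No member gained Ring1b at its start site, against 0.606% of the genes that lacked it in ESCs. Only Sox2 and Sox8 lacked it and could gain it, so this absence says little about the members. By covered bases, the 9 windows with ESC Ring1b all had less in NSCs and none had more. Over all genes, 19.1% of the windows with any Ring1b peak had more in NSCs. With only 9 windows, none at that share says little about the members. Sox1 went from 17.5 to 10.9 kb, Sox14 from 11 to 7.4 kb and Sox17 from 8.4 to 1.2 kb. The other 6 went to 0.

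H3K27me3 remained at some members of the neural and SoxF sets, but not at Sox21, Sox7 or any SoxE gene. NSC H3K27me3 peaks held the start sites of 5 members, Sox1, Sox2, Sox14, Sox17 and Sox18, against 1.77% of all genes. Of the 7 members with the start site in an ESC peak, Sox14, Sox17 and Sox18 kept it and 4 did not, namely Sox7 and the 3 SoxE genes. Among all genes 74.6% of those start sites were outside NSC peaks, so the absence at the 3 SoxE genes says little about that set. Sox1 and Sox2 had the start site in an NSC peak and not in an ESC peak, as had 0.706% of the genes that lacked it in ESCs. For Sox2 the ESC peak began 274 bp from the start site, and for Sox1 1482 bp from it, so both windows held H3K27me3 in ESCs as well.

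The covered bases of H3K27me3 went up at some members and down at others. Cover was higher in NSCs at 3 members, Sox1 (from 7.28 to 9.28 kb), Sox2 (from 1.2 to 1.8 kb) and Sox17 (from 4 to 8.2 kb). The share of windows with any H3K27me3 peak that had more in NSCs was 26.1% over all genes. Sox14 was nearly level, at 10.2 and 9.8 kb, and Sox18 went from 3 to 2 kb. Sox21 went from 6 kb to 0, as did Sox9 from 3.2 kb, Sox7 from 2.8 kb, Sox10 from 2 kb and Sox8 from 1.8 kb. At Sox2 and Sox18 the NSC H3K27me3 peak had no NSC Ring1b peak in the window.

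**Figure D4:**
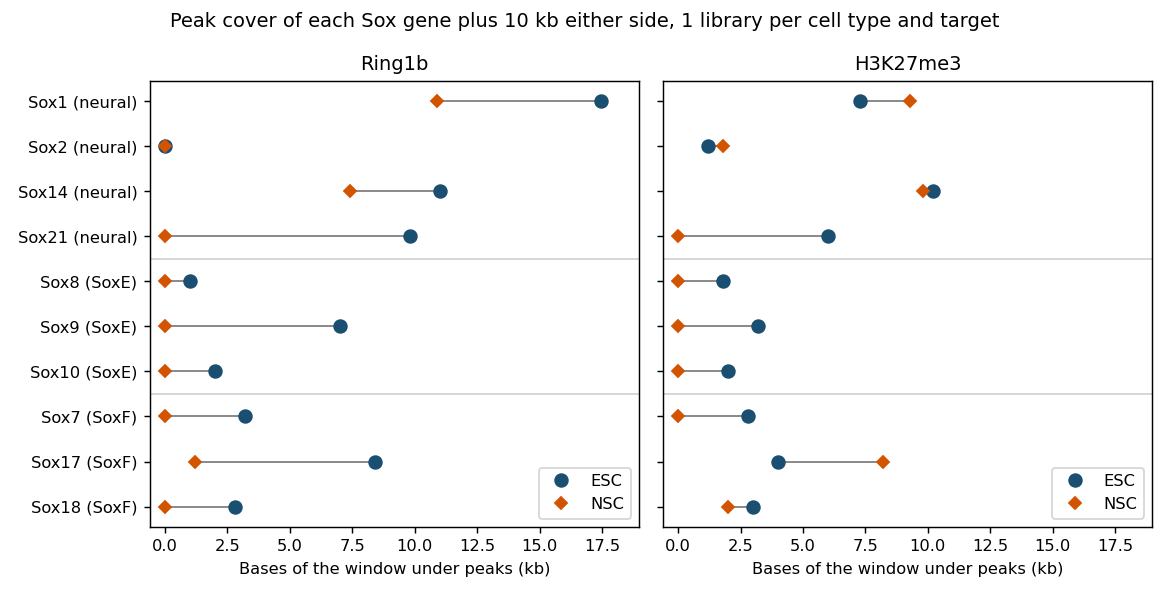
Bases of each window under peaks (x axis, kb) in ESCs (circles) and NSCs (diamonds) for Ring1b (left) and H3K27me3 (right), with 1 library per cell type and target and a line joining the values of a gene. For Ring1b no diamond lies right of its circle, whereas for H3K27me3 the diamonds of Sox1, Sox2 and Sox17 do.

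An ESC PcG target was taken as a Ring1b peak touched by Cbx2, Ezh2 and H3K27me3 peaks alike, a state met at 1.56% of all start sites. The study's own definition for ESCs also required a Cbx7 peak, for which there is no list here, so the targets used here are defined more loosely. The targets held 5 members, namely Sox1, Sox14, Sox21, Sox9 and Sox17, with widths of 20000, 11000, 8400, 7000 and 8400 bp. At 2 of them, Sox21 and Sox9, no NSC peak of either kind overlapped the target, and over all 348 genes in such targets that share was 27%. Both NSC Ring1b and NSC H3K27me3 peaks overlapped the target at Sox1, Sox14 and Sox17, and over the 348 genes that share was 51.7%. With only 5 members, neither count stands apart from the share over all such genes. Inside the Sox17 target NSC Ring1b covered 1.2 kb and NSC H3K27me3 7.6 kb. Inside the Sox14 target the values were 7 and 9.4 kb, and inside the Sox1 target Ring1b had more, 13 kb against 11.4 kb.

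By the median share of the window covered, the neural set came above the others in every list. The medians for ESC Ring1b were 45.6% for the neural set, 12.8% for SoxF and 6.76% for SoxE. The order was the same for ESC H3K27me3, at 27.8, 13.8 and 7.26%, and for Ezh2, at 20.6, 11 and 5.41%. For Cbx2 the neural median was 18.2% and the others were 0. In NSCs the neural median was 16.8% for Ring1b, with 0 in the other sets, and for H3K27me3 it was 23.3%, with 9.17% for SoxF and 0 for SoxE. Both neural medians lay between genes with much cover and genes with little or none. NSC Ring1b covered 45.3% at Sox1, 33.6% at Sox14 and 0 at Sox2 and Sox21. NSC H3K27me3 covered 44.5% at Sox14, 38.6% at Sox1, 8.02% at Sox2 and 0 at Sox21. The median over all protein-coding genes was 0 in every list. The sets overlapped widely, because Sox2 had less ESC Ring1b than any SoxE or SoxF gene while Sox17 and Sox9, at 33.0 and 27.4%, lay well above the lowest neural gene. With no flank around the gene, the order for NSC H3K27me3 turned, with a median of 96.5% of the gene covered for SoxF and 84.1% for the neural set, and neural and SoxF were level at 100% for ESC Ring1b. The median for NSC Ring1b was then 0 in all 3 sets, so the neural set no longer came above the others.

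Elsewhere in the Sox family, some genes had peaks in ESCs and none had a peak in NSCs. Of 9 other Sox genes (Sox3, Sox4, Sox5, Sox6, Sox11, Sox12, Sox13, Sox15 and Sox30), 5 had the start site in an ESC Ring1b peak, namely Sox3, Sox4, Sox6, Sox11 and Sox30. The share over all protein-coding genes was 7.03%. None of the 9 had the start site in a peak of any of the other 5 lists, where the shares were 1.15 to 4.31%. The covered share for ESC Ring1b was 28.1% at Sox3, a SoxB1 gene like Sox1 and Sox2, 18.2% at Sox11 and 17.7% at Sox4. H3K27me3 peaks of ESCs were present in 5 of these 9 windows, Ezh2 peaks in 2 (Sox3 and Sox6) and Cbx2 peaks in 1 (Sox6). The shares of windows over all genes were 9.98, 5.29 and 3.1%. NSC peaks of either kind were present in 0 of the 9, against 4.65% (Ring1b) and 4.7% (H3K27me3) of all windows. At shares this low, 0 of 9 says little about these genes.

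The combination of lists that held a start site was shared with 30 to 198 other genes, or 0.134 to 0.886% of all other protein-coding genes. The Sox17 combination (all lists but NSC Ring1b) and the Sox1 combination (ESC Ring1b and NSC H3K27me3) were each found at 30 other genes. Sox9 shared its combination (the 4 ESC lists) with 50, Sox21 (ESC Ring1b and Ezh2) with 54 and Sox2 (NSC H3K27me3 alone) with 60. The combination of Sox14 and Sox18 was found at 68 other genes, that of Sox7 and Sox10 at 163 and that of Sox8 at 198. By the distance between the 6 covered shares, in percentage points, the nearest genes outside the family were Cldn3 (2.68) and Hs3st6 (2.71) for Sox2, Nr4a2 (8.74) and Gm11444 (9.14) for Sox21, Pax9 (7.21) and Irx1 (9.48) for Sox9, and Dmrt3 (9.04) and Prhoxnb (13.4) for Sox17. These distances describe 1 library per list and were not tested.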

How the data were processed

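PcG binding was measured by ChIP-seq in 6 libraries, 4 of ESCs and 2 of NSCs, each in a group of its own by its title. The 4 input libraries were not analysed here. The values the authors deposited are positions, the start and end of each peak on mm9, without any count, height or score. By the study's methods, tags were mapped with Bowtie, whereas the submitters' processing notes name BWA. Tags were counted in 1 kb windows every 200 bp, tested against input under a negative binomial model with a size parameter chosen by eye, and joined where enriched windows lay close together. A weak peak therefore depends on that setting, and a missing peak means only that no window passed it.

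Genes came from GENCODE vM1 on NCBIM37 (mm9), 22350 protein-coding records on the 20 chromosomes with peaks, plus Sox1, which that annotation lacks. Sox1 was placed by the only exact match of its RefSeq promoter (GRCm38.p6) in mm9, and its length was taken from RefSeq. RefSeq promoters were given for 5 of the 10 members. They put the start site of Sox14 74 bp downstream and that of Sox2 10 bp upstream of the annotated one, with no difference for Sox1, Sox21 and Sox8. An overlap was 1 bp or more. Python 3.11.15 and numpy 2.4.6 gave the overlaps and covered shares, and matplotlib 3.10.9 the plots. In simulated lists, 200 of 200 start sites planted in peaks were found, and covered bases were right at 724 of 724 genes of chromosome 19.

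The genes named are the 10 members, the other Sox genes, protein-coding genes starting in a member's window (of 3, only Gm5607 had a peak on its start site) and the 2 nearest genes by covered share for Sox2, Sox21, Sox9 and Sox17. Sry was not analysed here, and 1 NSC marker and the upstream bases of 1 member are not reported here. Members and gene lists were chosen with earlier results of these data known. Alternatives were other flanks (none, 5 and 20 kb), at least 500 bp of a peak in the window, any annotated start site, a peak within 1 kb of the start site, peaks of at least 2 kb, and peaks within 3 kb merged.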

Additional observations from a re-analysis of the deposited data

How the results depend on the processing

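Each list is 1 library, so leaving out a replicate was not possible, and each call at a peak edge rests on 1 caller setting. The 8 Ring1b start sites outside NSC peaks stayed within 1.5 times under all 4 alternatives tried for them. No member had an NSC Ring1b peak on its start site, but 1 did (Sox17) when a peak within 1 kb sufficed and 1 (Sox1) when peaks within 3 kb were merged. The number of start sites that kept Ring1b was then 1 in each case. Within 1 kb, H3K27me3 was gained at 1 start site (Sox1), because the ESC peak of Sox2 then counted. With any annotated start site, ESC calls were added for Sox8 (Ring1b), Sox14 (Cbx2) and Sox21 (H3K27me3). Within 1 kb the same calls were added, and also Sox1 for Ezh2 and Sox2 for ESC H3K27me3. With peaks of at least 2 kb, the start sites of Sox10 and Sox17 were no longer in Ezh2 peaks, those of Sox8 and Sox17 not in ESC H3K27me3 peaks and that of Sox2 not in an NSC H3K27me3 peak. The number of ESC H3K27me3 start sites thus ran from 5 to 9. With no flank, NSC Ring1b was met at 1 member.

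Median covered shares depended on the window, since a longer flank adds uncovered bases. With no flank they were, for ESC Ring1b, 100% (neural and SoxF) and 20.9% (SoxE), for Cbx2 55% (neural), for Ezh2 84.9, 15.9 and 56.4% (neural, SoxE, SoxF), for ESC H3K27me3 71.1, 26.4 and 49.1%, and for NSC H3K27me3 84.1% (neural) and 96.5% (SoxF). With 5 kb they were 20.3% for SoxF Ezh2 and, for ESC H3K27me3, 12.2% (SoxE) and 25.4% (SoxF). With 20 kb the same values were 5.74, 4.03 and 7.18%. With peaks of at least 2 kb, SoxF H3K27me3 in ESCs was 10.3%. The other 53 medians moved by no more than the spread among the 3 or 4 genes of the set, which can be wide. The genes of a set are not replicates, so a move within that spread does not show a median to be stable. Among these 53, neural ESC Ring1b went from 45.6% to 67.7% with 5 kb and to 24.3% with 20 kb. SoxF ESC Ring1b went from 12.8% to 23.7% and 6.8%. The 53 also include 2 that fell to 0. These were the neural NSC Ring1b median with no flank (from 16.8%) and the SoxE Ezh2 median with peaks of at least 2 kb (from 5.41%).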
